A study of Homo sapiens with 6 samples.

Results

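Transcript levels of 10 genes of the Krüppel-like factor family were followed in SUM159, a human breast cancer cell line of the triple-negative class, with and without overexpression of POGK. The members were chosen by symbol, as KLF2, KLF3, KLF4, KLF5, KLF6, KLF7, KLF9, KLF10, KLF11 and KLF13, and all 10 were among the 18398 genes of the count table. The same table held 5 further KLF genes (KLF8, KLF12, KLF15, KLF16 and KLF17), which were not among the members and are given separately. The control group was 3 libraries from SUM159 cells carrying the pLVX vector without POGK, and the POGK group was 3 libraries from SUM159 stable cells made with pLVX carrying POGK. Both lines were grown in Ham's F12 with serum, insulin and hydrocortisone, a glucocorticoid. POGK has a KRAB domain, a domain known from transcriptional repressors, joined to a DNA-binding part derived from a pogo-type transposon. The question put by the series is which genes depend on POGK. The labels do not say whether the stable cells are a pool or a single clone, nor whether each replicate had its own culture. The p-values therefore describe the spread between these libraries alone, which may be technical.

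Krüppel-like factors are transcription factors with a shared zinc finger domain at the C terminus that binds GC boxes and CACCC boxes in DNA. They fall into classes by the cofactors that the rest of the protein binds. KLF3, KLF8 and KLF12 are known as repressors that recruit CTBP proteins, KLF9, KLF10, KLF11, KLF13 and KLF16 recruit the SIN3 corepressor complex, and KLF2, KLF4, KLF5, KLF6 and KLF7 are best known as activators. Several are quickly induced genes: KLF2, KLF4 and KLF6 by serum and growth factor signals, KLF9 by glucocorticoids, and KLF10 and KLF11 by TGF-beta.

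POGK itself rose from 69.0 ± 7.58 to 768 ± 22.02 CPM (SD, n = 3 each). CPM stands for a gene's count relative to the library's total, after TMM scaling, which corrects for differences in library makeup. Each library held between 27645789 and 33689230 counts. The SUM159 labels were checked on markers: the mesenchymal genes VIM, CD44 and ZEB1 were at 5960, 831 and 61.7 CPM in control cells, the estrogen receptor gene ESR1 was at most 0.32 CPM in any library, and PGR was not analysed here. VIM fell to 3344 CPM in POGK cells. AXL, a receptor kinase gene of mesenchymal cells, rose from 354 to 443 CPM. ZEB1 was at 49.2 CPM in POGK cells and CD44 at 692 CPM, and both calls were lost with library size alone. Markers of blood and endothelial cells, PTPRC and PECAM1, summed to 4.79 to 6.70 CPM in control and 5.40 to 5.86 CPM in POGK libraries. Their directions were opposite. PTPRC, at 0.53 and 1.66 CPM as group means, passed as higher (edgeR adjusted p = 0.00148). PECAM1, at 5.18 and 3.97 CPM, passed as lower (edgeR adjusted p = 0.0433), a call lost under several alternatives. The part of these marker differences in the results was not tested. Libraries of the control group differed from each other more than those of the POGK group, with a median coefficient of variation of 13.5% against 4.44% over the genes tested.

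POGK cells had less RNA of all 10 members, each with an adjusted p from edgeR below 0.05. For comparison, 33.3% of the 15889 genes tested were called lower and 32.7% higher. In 10 of 10 members every POGK library lay below every control library, against 36.8% of all genes tested. The fall was at least 2-fold for 7 members, against 12.7% of all genes. The median log2 fold change of POGK over control was -1.38 for the members, with single values from -2.27 for KLF6 to -0.75 for KLF3, and 0.0020 for all genes tested. Summed over the members, control libraries held 2649, 1995 and 1853 CPM and POGK libraries 741, 724 and 720.1 CPM, a mean 2.97-fold lower. All 10 passed the filter on low counts, and the members were named with earlier results of these data known, so these counts describe them and are no test of the family. In bulk RNA, a smaller share of cells expressing a gene and less RNA per cell cannot be told apart.

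**Figure D1:**
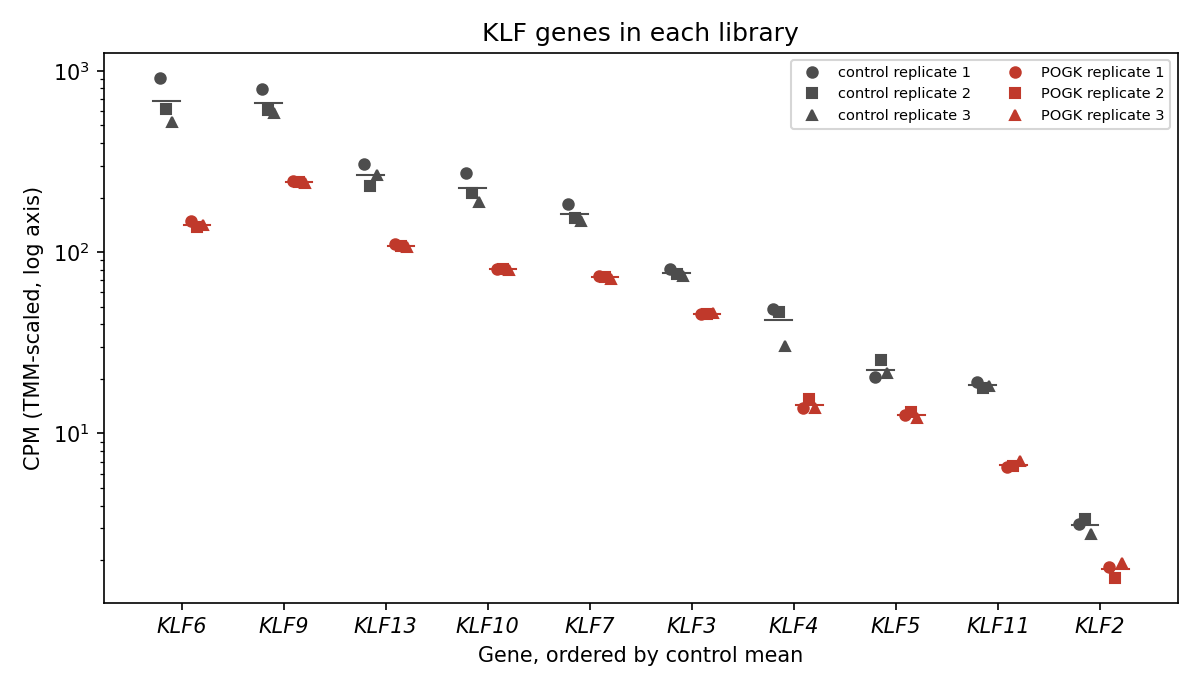
CPM (log axis) of the 10 members, ordered by control mean, with control libraries in grey, POGK libraries in red, a marker shape per replicate and a line at each group's mean. For every gene the red points lie below the grey points, from KLF6 at 685 against 142 CPM to KLF2 at 3.12 against 1.79 CPM. The red points lie closer together except for KLF2 and KLF11, whose relative spread is much alike in both groups.

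The start regions were searched for the DNA elements that the family itself binds, and for other short elements. Windows of 250 bases before an annotated start were taken from RefSeq (GRCh38.p14). The search covered 8 of the 10 members, with 13 windows in all. The starts of KLF3 and KLF10 were not analysed here. The search was for 4 elements on both strands: the GC box (GGGCGG, or CCGCCC on the other strand), the CACCC box (CACCC, or GGGTG on the other strand), the E-box CACGTG and the CRE TGACGTCA. Matches of the GC box and the CACCC box can overlap. A GC box was present in 8 of the 13 windows, or 61.5%, against 42.6% of all 35116 windows of the same length. The CACCC box was in 6 of 13, or 46.2%, against 54.7% of all. The E-box, an element bound by MYC, USF and clock proteins, was in 4 of 13 windows, those of KLF4, KLF6, KLF7 and KLF11, against 6.34% of all windows. The CRE, bound by CREB proteins, was in 1 of 13, a window of KLF11, or 7.69%, against 1.65% of all. Windows of 1 gene can overlap or share a GC-rich region, and a match is only a description of the letters.

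The windows of the 5 members with a single annotated start are printed to show where these boxes lie in 4 GC-rich windows and how the window of KLF9 differs from them. They are chr10:3785210-3785459 on the minus strand for KLF6, chr9:107489770-107490019 on the minus strand for KLF4, chr19:16324576-16324825 on the plus strand for KLF2, chr15:31326585-31326834 on the plus strand for KLF13, and chr9:70414658-70414907 on the minus strand for KLF9. Each is written 5′ to 3′ in lower case, with GC and CACCC boxes of either strand in capitals.
KLF6: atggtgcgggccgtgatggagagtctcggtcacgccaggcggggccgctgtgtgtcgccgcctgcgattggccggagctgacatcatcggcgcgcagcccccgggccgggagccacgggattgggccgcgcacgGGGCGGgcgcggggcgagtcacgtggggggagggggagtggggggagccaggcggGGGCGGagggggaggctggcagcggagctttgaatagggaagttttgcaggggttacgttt
KLF4: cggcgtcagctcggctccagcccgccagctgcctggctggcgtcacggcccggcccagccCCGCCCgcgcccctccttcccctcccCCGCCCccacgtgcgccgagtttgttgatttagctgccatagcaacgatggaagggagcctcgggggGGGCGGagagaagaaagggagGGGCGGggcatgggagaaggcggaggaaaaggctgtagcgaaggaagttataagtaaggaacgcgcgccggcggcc
KLF2: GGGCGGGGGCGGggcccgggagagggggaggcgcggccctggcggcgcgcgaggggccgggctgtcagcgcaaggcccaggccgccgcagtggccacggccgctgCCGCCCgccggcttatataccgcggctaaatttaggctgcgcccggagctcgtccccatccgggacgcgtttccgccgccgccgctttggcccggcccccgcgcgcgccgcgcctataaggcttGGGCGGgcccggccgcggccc
KLF13: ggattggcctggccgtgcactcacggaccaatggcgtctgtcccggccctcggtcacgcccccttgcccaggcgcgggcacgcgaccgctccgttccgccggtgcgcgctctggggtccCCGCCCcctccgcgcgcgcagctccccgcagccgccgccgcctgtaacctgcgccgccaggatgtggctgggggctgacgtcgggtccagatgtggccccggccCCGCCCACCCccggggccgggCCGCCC
KLF9: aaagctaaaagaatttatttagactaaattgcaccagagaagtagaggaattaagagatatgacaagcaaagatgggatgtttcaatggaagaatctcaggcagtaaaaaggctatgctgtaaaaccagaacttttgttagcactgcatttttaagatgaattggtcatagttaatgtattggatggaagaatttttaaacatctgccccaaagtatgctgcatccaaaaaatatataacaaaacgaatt
The windows of KLF2 and KLF4 each held 4 GC boxes, that of KLF13 held 3 together with 1 CACCC box, and that of KLF6 held 2. The window of KLF9 held neither element and was 32.4% G and C, where the other 4 had between 69.2% (KLF4) and 80.0% (KLF2). The log2 fold changes of these 5 members were -2.27 (KLF6), -1.55 (KLF4), -1.44 (KLF9), -1.31 (KLF13) and -0.80 (KLF2). Whether the boxes bear on these changes was not tested. GENCODE places the outermost start of KLF4 and of KLF6 further upstream than RefSeq, so other starts may be used.

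Among the activators, KLF6 changed most. KLF6 (ENSG00000067082; hg38 chromosome 10, 3775996 to 3785281, minus strand) is a growth-factor-induced gene with tumour suppressor activity in several cancers. Control libraries held 913, 618 and 524 CPM, against 148, 137 and 141 CPM under POGK. Control replicate 1 was the highest, and the lowest control library was far above every POGK library. This is a log2 fold change of -2.27 (standard error 0.18, edgeR adjusted p = 2.00e-05), and of -2.005 without control replicate 1. KLF4 (ENSG00000136826; chromosome 9, 107484852 to 107490482, minus strand), a pluripotency factor that also restrains the cell cycle in epithelia, was at 48.8, 47.0 and 30.5 CPM in control and 13.8, 15.4 and 13.8 CPM in POGK libraries. Control replicate 3 was the low one here, and the groups did not overlap. KLF4 had a log2 fold change of -1.55 (standard error 0.17, edgeR adjusted p = 7.19e-05).

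KLF7 (ENSG00000118263; chromosome 2, 207074137 to 207173856, minus strand), known for roles in neurons and fat cells, was at 185, 155 and 148 CPM in control libraries and 74.1, 73.2 and 71.2 CPM in POGK libraries, a 2.23-fold fall. KLF5 (ENSG00000102554; chromosome 13, 73054976 to 73077541, plus strand), which promotes proliferation of epithelial cells and is often high in basal breast cancer, moved less. It was at 20.4, 25.3 and 21.5 CPM in control and 12.6, 13.1 and 12.1 CPM in POGK libraries, 1.77-fold lower. KLF2 (ENSG00000127528; chromosome 19, 16324826 to 16328685, plus strand), best known from endothelium and resting T cells, was the scarcest member, with 79, 106 and 83 counts in control and 66, 58 and 57 counts in POGK libraries. On the CPM scale it fell from 3.12 ± 0.30 to 1.79 ± 0.17 (SD, n = 3 each). The edgeR adjusted p-values were 1.54e-05 for KLF7, 1.89e-04 for KLF5 and 0.00217 for KLF2.

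The balance between activators of opposite reputation was compared within each library. The log2 ratio of KLF4 to KLF5 CPM was 1.26, 0.90 and 0.51 for the control libraries and 0.12, 0.24 and 0.18 for those with POGK. KLF4 thus lay above KLF5 in all 6 libraries, by less in each POGK library than in any control library. This pair was chosen after its values were seen, and the control values were widely spread.

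Of the members that recruit SIN3, KLF9 (ENSG00000119138; chromosome 9, 70384604 to 70414657, minus strand) was the most abundant. KLF9 is a glucocorticoid and thyroid hormone target that opposes proliferation in several tissues. Its control libraries held 798, 609 and 582 CPM and its POGK libraries 247, 243 and 241 CPM, the latter with a coefficient of variation of 1.15%. KLF9 had a log2 fold change of -1.44 (standard error 0.12, edgeR adjusted p = 1.88e-05). KLF13 (ENSG00000169926; chromosome 15, 31326835 to 31435665, plus strand), a regulator of the chemokine gene CCL5 in T cells, was at 307.5, 230.3 and 265 CPM in control and 110.5, 107 and 106 CPM in POGK libraries. This was a 2.48-fold fall (edgeR adjusted p = 1.54e-05), and the groups did not overlap.

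KLF10 and KLF11, the TGF-beta-inducible pair also called TIEG1 and TIEG2, fell by nearly the same factor from very different levels. KLF10 (ENSG00000155090; chromosome 8, 102648784 to 102655725, minus strand) was at 274, 213 and 188 CPM in control libraries and 81.2, 80.8 and 79.2 CPM in POGK libraries, a 2.80-fold fall. KLF11 (ENSG00000172059; chromosome 2, 10042849 to 10054836, plus strand) was at 19.2, 17.9 and 18.3 CPM in control and 6.57, 6.63 and 7.02 CPM in POGK libraries, a 2.74-fold fall. Its control libraries were the least spread of all members, at a coefficient of variation of 3.57%, and it had the smallest edgeR adjusted p of the members, 7.99e-06. For KLF10 the edgeR adjusted p was 2.08e-05. The log2 ratio of KLF11 to KLF10 CPM averaged -3.59 ± 0.24 in control and -3.58 ± 0.07 in POGK cells (SD, n = 3 each).

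KLF3 (ENSG00000109787; chromosome 4, 38664197 to 38701517, plus strand), a repressor that binds CTBP, had the smallest fall of the members. It was at 81.1, 76.0 and 74.2 CPM in control libraries and 45.4, 45.5 and 46.4 CPM in POGK libraries. Replicates lay close together in both groups, and the log2 fold change was -0.75 (standard error 0.07, edgeR adjusted p = 2.61e-05). Its antisense RNA KLF3-AS1 was not analysed here.

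Levels of different genes were compared per length, as TPM, the count divided by GENCODE exon length and scaled to the same total in every library. In control cells the order was KLF9 (473 TPM), KLF6 (412), KLF10 (218), KLF13 (105), KLF7 (62.8), KLF4 (42.7), KLF3 (42.4), KLF5 (22.7), KLF11 (14.99) and KLF2 (4.12 TPM). The libraries of KLF9 and KLF6 overlapped, as did those of KLF4 and KLF3, and the other neighbours were separate. In POGK cells the order was the same except that KLF3, at 28.4 TPM, stood above KLF4, at 16.4 TPM, and no neighbours overlapped. Of the members, 3 were among the 1000 highest genes per length in control cells (KLF6, KLF9 and KLF10) and 1, KLF9, in POGK cells.

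The makeup of the family's transcripts shifted mainly at KLF6. KLF6 made up 32.2, 28.8 and 26.7% of the members' summed TPM in control and 18.8, 17.8 and 18.4% in POGK cells. The share of KLF9 went from 33.9 ± 0.91% to 37.1 ± 0.12% and that of KLF3 from 3.08 ± 0.43% to 5.35 ± 0.13% (SD, n = 3 each), and the groups did not overlap for either. The shares of KLF2, KLF5, KLF7, KLF10 and KLF13 also rose without overlap, while the libraries of KLF11 overlapped. Shares are parts of the same sum, so a smaller share of KLF6 leaves larger ones for the others. KLF4 had a share of 3.05 ± 0.55% in control and 3.10 ± 0.22% in POGK cells, with overlapping libraries.

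**Figure D2:**
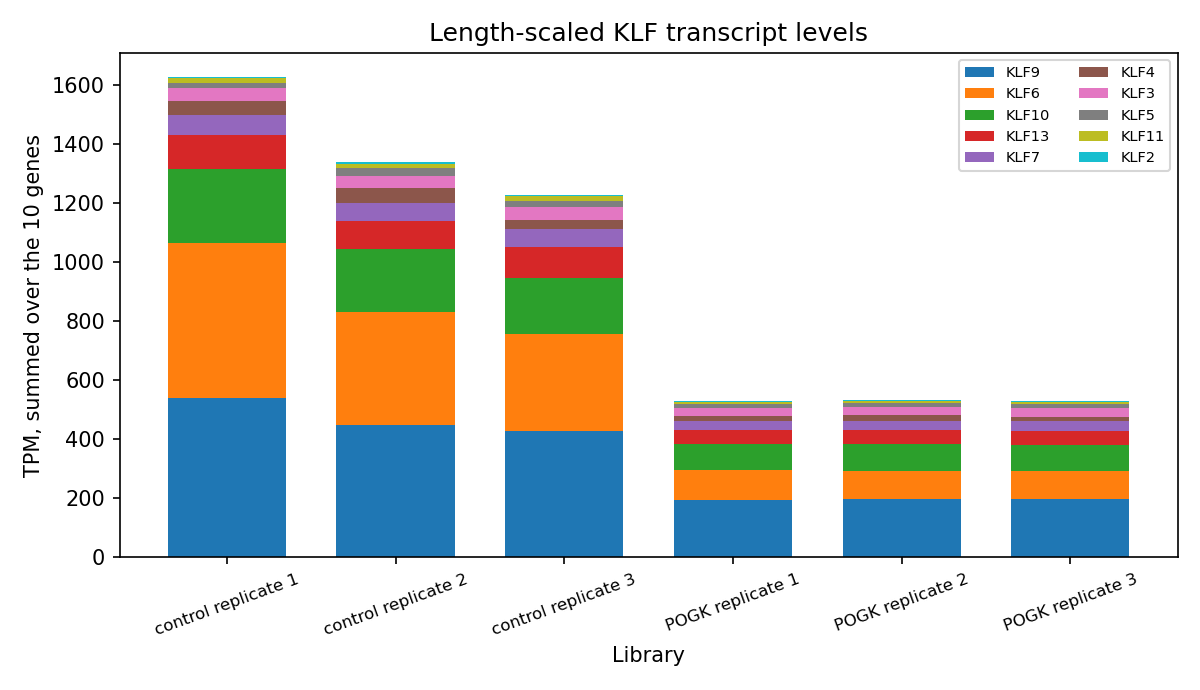
Bars stack the TPM of the 10 members in each library, from KLF9 at the bottom to KLF2 at the top. The control bars reach 1628, 1339 and 1228 TPM and the POGK bars 529.9, 533.5 and 529.2 TPM, and the KLF6 segment shrinks most.

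The control libraries did not rank alike for all members. Control replicate 1 was the highest of the 3 for 8 of the 10 members, or 80%, and for 62.6% of all genes called lower. Control replicate 2 was highest for the other two, KLF2 and KLF5. The coefficient of variation of members ran from 3.57% (KLF11) to 29.6% (KLF6) in control and from 1.15% (KLF9) to 9.31% (KLF2) in POGK cells. Without control replicate 1 the median of the members was -1.24 and all 10 were still called lower.

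The 5 other KLF genes of the table did not all follow. KLF8 and KLF12, of the same CTBP-binding class as KLF3, fell from 10.1 ± 0.91 to 5.38 ± 0.37 CPM and from 20.03 ± 2.10 to 13.0 ± 0.96 CPM (SD, n = 3 each; edgeR adjusted p = 2.21e-04 and 0.00104). KLF15, a metabolic regulator that is also glucocorticoid-responsive, was at 8.53, 12.7 and 8.72 CPM in control and 8.83, 9.26 and 8.97 CPM in POGK libraries, and did not pass (edgeR adjusted p = 0.427). KLF16 was at 34.2, 31.9 and 27.2 CPM in control and 35.6, 31.7 and 31.4 CPM in POGK libraries, with a log2 fold change of 0.08 that did not pass (edgeR adjusted p = 0.512). With library size alone as scaling, KLF16 passed as higher, with a log2 fold change of 0.28.

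KLF17, a gene best known from germ cells and the early embryo, was scarce and went the other way, with 3, 8 and 8 counts in control and 23, 20 and 24 counts in POGK libraries. It rose by a log2 fold change of 1.57 (standard error 0.35, edgeR adjusted p = 0.00373), and with the filter of 1 CPM it was not tested. KLF1, KLF14 and KLF18 were not analysed here. Of the 15 KLF genes of the table, 12 fell, 1 rose and 2 missed the threshold, and their median log2 fold change was -0.91. Among all genes tested, 33.3% were called lower and 32.7% higher. The 12 include the 10 members, which were named with earlier results of these data known. Taken alone, the 5 other KLF genes had 2 lower and 1 higher, with a median of -0.15 (0.04 with library size alone).

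SP proteins share the zinc finger domain and bind the same GC boxes, and the log2 fold changes of their genes lay between -0.48 and 0.73. Of 7 SP genes tested, 3 fell and 3 rose, where 33.3% of all genes tested fell and 32.7% rose. SP1, the widely expressed founder, fell 1.40-fold from 199 ± 15.8 CPM, and SP3 fell 1.27-fold from 103 ± 3.42 CPM, a call lost with library size alone (adjusted p = 0.0519). SP2 rose from 17.6 ± 2.76 to 24.4 ± 1.19 CPM and SP6 from 2.09 ± 0.11 to 3.47 ± 0.46 CPM (SD, n = 3 each). SP4 passed as lower with a log2 fold change of -0.36 and SP8 as higher with 0.50, but SP4 missed the threshold when control replicate 1 (adjusted p = 0.106), control replicate 3 (0.0674), POGK replicate 1 (0.155) or POGK replicate 3 (0.157) was left out, and with library size alone (0.307). SP8 missed it without control replicate 1 or 2 (0.0895 and 0.0764), without POGK replicate 1 or 2 (0.133 and 0.148), with DESeq2 (0.0944), with limma-voom (0.051) and with the replicate block (0.0737). SP5 did not pass, with a log2 fold change of 0.41.

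**Figure D3:**
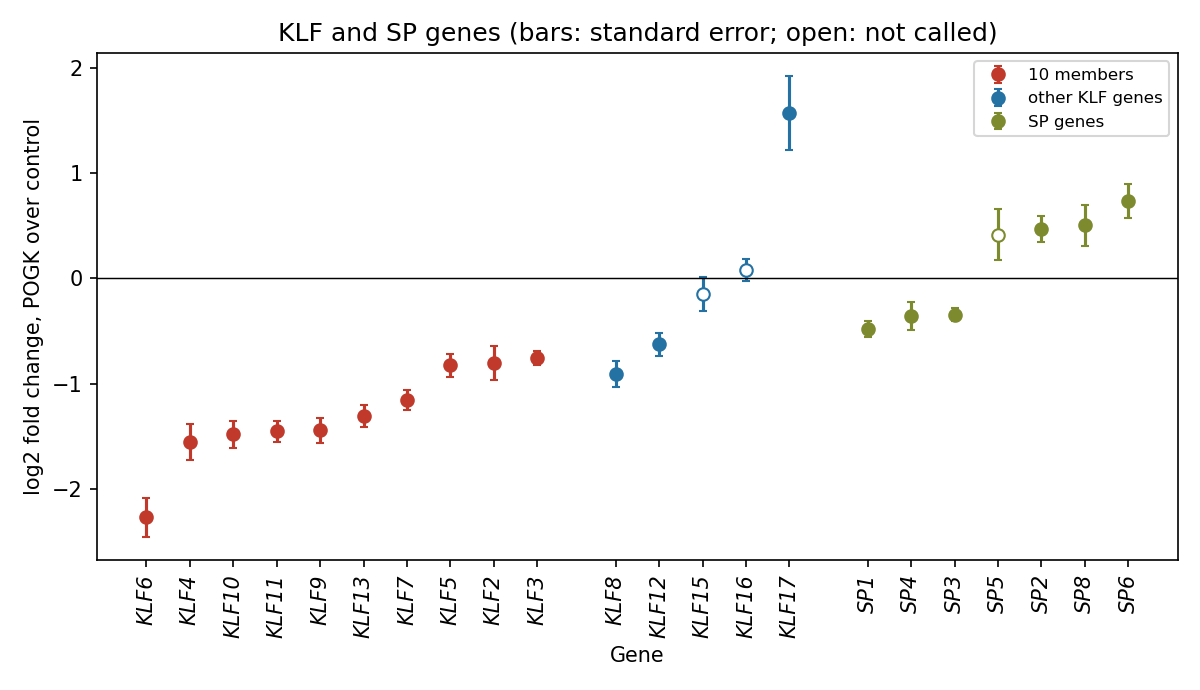
Points and bars show log2(POGK / control) and its standard error for the 10 members (red), the 5 other KLF genes (blue) and 7 SP genes (green), with open points for genes that did not pass. The red points lie between -2.27 and -0.75, while KLF17 stands at 1.57 and the SP genes between -0.48 and 0.73.

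Of 10 genes of corepressors and coactivators, 3 rose, 4 fell and the other 3 missed the threshold, close to the shares of all genes (32.7% higher, 33.3% lower). Their median log2 fold change was 0.04, a value that was 0.23 with library size alone and -0.02 without control replicate 2. SIN3B, a scaffold of the SIN3 complex, and HDAC3, a histone deacetylase, fell 1.38-fold and 1.37-fold, while CTBP2, a corepressor bound by KLF3, rose from 61.8 ± 5.06 to 87.2 ± 3.69 CPM. CTBP1 and SIN3A, chosen after their values were seen, had log2 fold changes of 0.48 and 0.23 and passed, but SIN3A did not without POGK replicate 1 (adjusted p = 0.0588) or 2 (0.0558). The acetyltransferase genes CREBBP and EP300, also named after their values were seen, passed as lower at -0.43 and -0.18. The call for CREBBP was lost with library size alone (adjusted p = 0.0888). EP300 was at 0.01 under that scaling, and its call was also lost with DESeq2, without the filter on low counts, with the replicate block, without control replicate 2 and without any 1 of the 3 POGK replicates (adjusted p from 0.0509 to 0.16).

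Of 13 genes upstream of KLF transcription, 7 fell, 2 rose and 4 missed the threshold, beside 33.3% lower and 32.7% higher among all genes. Their median was -0.19, which was 0.0050 with library size alone. The kinase gene MAP2K5, which acts in the ERK5 pathway that drives KLF2 and KLF4 through MEF2 factors, fell from 64.2 ± 7.23 to 26.0 ± 0.72 CPM (edgeR adjusted p = 1.05e-05). MEF2D and MEF2A fell 2.02-fold and 1.65-fold. The ERK5 gene itself, MAPK7, was among the 2 that rose, from 9.43 ± 0.73 to 13.5 ± 1.42 CPM (SD, n = 3 each). The other was MEF2C, at a log2 fold change of 0.35, whose call was lost with DESeq2, with the replicate block, without control replicate 3 and without any 1 of the 3 POGK replicates (adjusted p from 0.0556 to 0.115). The TGF-beta receptor genes TGFBR1 and TGFBR2 fell 1.88-fold from 45.9 ± 4.01 CPM and 1.33-fold from 284 ± 18.04 CPM. MAPK7, MEF2C and both receptor genes were named after their values were seen.

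Of 7 genes that control the turnover of KLF proteins, 4 rose and 1 fell, beside 32.7% higher and 33.3% lower among all genes. WWP1, a ubiquitin ligase for KLF5, rose from 42.8 ± 7.38 to 67.5 ± 1.31 CPM and BAP1, a deubiquitinase of KLF5, from 70.1 ± 3.37 to 93.7 ± 2.19 CPM. FBXO32, a ubiquitin ligase of muscle wasting also linked to KLF4, fell from 196 ± 2.40 to 98.0 ± 2.86 CPM (SD, n = 3 each; edgeR adjusted p = 6.05e-06). The other 2 that rose were BTRC and FBXW7, which encode substrate receptors of SCF ubiquitin ligases, with log2 fold changes of 0.91 and 0.62, named after their values were seen. KLF protein was not measured.

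Of 13 genes reported elsewhere as KLF targets, 6 rose, 6 fell and 1 did not pass. Among all genes tested the directions were also near equal, with 32.7% higher and 33.3% lower. MAOA, the monoamine oxidase gene activated by KLF11, fell from 635 ± 114 to 203 ± 1.81 CPM, and SMAD7, an inhibitor of TGF-beta signalling repressed by KLF10, fell from 29.0 ± 6.23 to 11.0 ± 0.87 CPM. CCNE1, the cyclin E1 gene, rose 2.02-fold. Among targets named after their values were seen, CDKN1A, the cell cycle inhibitor activated by KLF4 and KLF6, fell from 85.0 ± 19.8 to 54.1 ± 1.87 CPM. CCNB1 and ODC1, which KLF4 represses, rose with log2 fold changes of 1.09 and 1.47 (SD, n = 3 each; edgeR adjusted p = 0.00324 for CDKN1A, 2.17e-04 for CCNB1 and 1.15e-04 for ODC1). CCL5, the chemokine gene activated by KLF13, fell from 4.88 ± 1.43 to 2.29 ± 0.36 CPM. THBD, the thrombomodulin gene activated by KLF2, and ENG, the endoglin gene activated by KLF6, rose from 9.18 ± 0.48 to 15.1 ± 0.63 CPM and from 44.1 ± 8.60 to 77.4 ± 1.43 CPM (SD, n = 3 each). The median of the list, -0.10, was 0.09 with library size alone, 0.03 without control replicate 1, 0.02 without POGK replicate 2, and -0.29 without control replicate 2 or without POGK replicate 3. With control replicate 3 or POGK replicate 1 left out it was -0.04.

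KLF9 is glucocorticoid-responsive, so other genes with that response were set beside it. Of 7 such genes 5 fell, each at least 2-fold, 1 rose and 1 did not pass. Among all genes 33.3% fell, 12.7% at least 2-fold, and 32.7% rose. TSC22D3, the glucocorticoid-induced leucine zipper gene, was at 4749, 3090 and 2863 CPM in control and 573, 494 and 488 CPM in POGK libraries, a 6.88-fold fall. ZBTB16 fell 4.10-fold from 176 ± 31.7 CPM, and GLUL, the glutamine synthetase gene, fell 3.23-fold from 534 ± 93.7 CPM. PER1 and DUSP1, named after their values were seen, fell 2.57-fold and 3.70-fold.

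The response list was not uniform. FKBP5, also a direct glucocorticoid target, was at 761 ± 21.1 CPM in control and 736 ± 10.6 CPM in POGK cells and did not pass (edgeR adjusted p = 0.564), and with library size alone its log2 fold change turned from -0.05 to 0.14. SGK1 rose from 6.12 ± 3.41 to 14.96 ± 1.65 CPM (edgeR adjusted p = 0.00677), with the control libraries at 4.19, 10.1 and 4.11 CPM. NR3C1, the glucocorticoid receptor gene from the upstream list, fell 1.63-fold from 212 ± 23.6 CPM (SD, n = 3 each). These 3 genes were named after their values were seen.

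**Figure D4:**
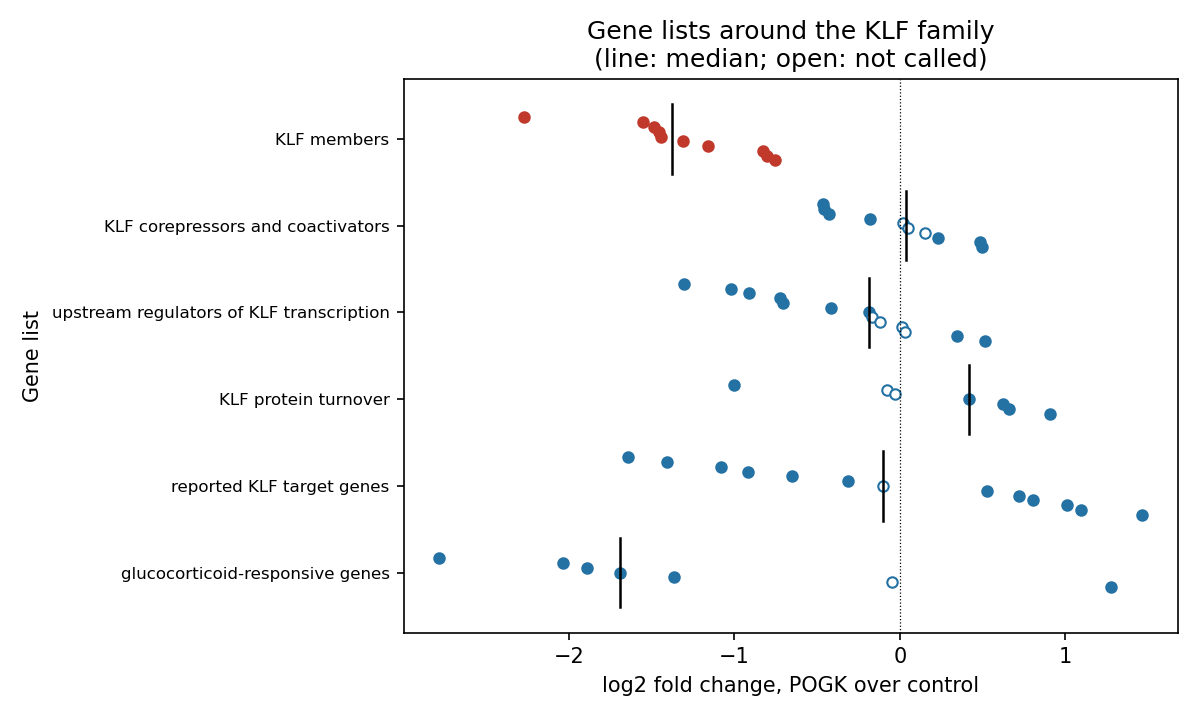
Each row is a gene list and each point a gene's log2(POGK / control), with a line at the list's median and open points for genes that did not pass. The medians are -1.38 for the KLF members, 0.04 for cofactors, -0.19 for upstream regulators, 0.42 for protein turnover, -0.10 for reported targets and -1.69 for glucocorticoid-responsive genes.

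The genes most like KLF11, the member with the smallest adjusted p, were ranked by Pearson correlation of log2(CPM + 1) over the 6 libraries, among 9469 genes averaging 10 CPM or more. The closest were ADCY9, UBBP4, VSTM2L, PAGE5 and ADGRL3, with r from 0.99901 (ADGRL3) to 0.99926 (ADCY9). The points share the same 2 groups and libraries, so r is only a description. ADCY9, an adenylyl cyclase gene, fell from 117 ± 4.66 to 64.8 ± 0.91 CPM, while PAGE5, a cancer-testis antigen gene, fell from 198.5 ± 24.8 to 15.7 ± 0.26 CPM (SD, n = 3 each).

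The authors' deposited table gave all 10 members negative log2 fold changes as well, from -2.27 for KLF6 to -0.75 for KLF3. Annotated exons of other genes on the opposite strand overlap 4 members: 265 bases of KLF3 (with KLF3-AS1), 357 of KLF4, 416 of KLF11, and 67 of KLF7 with MYOSLID plus 13 with another RNA. MYOSLID had 795 counts over the 6 libraries. The strand setting of the counting is not given in the sources used here, so reads of these stretches may be mixed.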

How the data were processed

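Total RNA from 3 control and 3 POGK libraries was depleted of ribosomal RNA and aligned to hg38, per the labels' protocols. The submitters' processing notes name featureCounts, STAR, Trimmomatic, SAMtools and deepTools. The annotation is not given in the sources used here, nor is the strand setting. In the deposited table are raw counts per gene, 1 column per library per the file headers. Scaled signal columns, deposited beside them, equal each count over a factor for its library. The authors' own log2 fold changes, score of the test and p-value columns are also there, per the file headers.

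The counts as deposited were tested with edgeR 4.0.16 (R 4.3.3): default low-count filter, TMM scaling, robust quasi-likelihood test, Benjamini-Hochberg adjustment over 15889 genes, called below 0.05. Standard errors were derived from the F statistic. Libraries were grouped by title, and in each group they differed by more than sampling noise. Exon lengths came from GENCODE release 44 (hg38), and promoter windows from RefSeq. The same script was tested on simulated data. Those data had the same relative spread in both groups, unlike the real libraries, so they do not check that difference. The rule for named genes took POGK, the members, all detected KLF and SP genes, the 3 smallest adjusted p of each other list and the 5 genes most like the top member. Other genes of the lists were named after their values were seen. The members and lists were chosen with earlier results of these data known. Alternatives were DESeq2 1.42.0, limma-voom (limma 3.58.1), 2 other scalings, 2 other filters, a replicate block and each library left out.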

Additional observations from a re-analysis of the deposited data

How the results depend on the processing

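All 10 members were called lower, and none higher, under each of the 13 alternatives run, and the largest adjusted p was 0.0159, for KLF2. Over all genes, those called lower ran from 3925 of 15889 (library size alone) to 5587 of 16278 (without control replicate 2). With library size alone, which moved the median of all genes to 0.19, the median of the members was -1.18, their summed level in POGK cells was 779 CPM, and calls over all genes were 6575 higher and 3925 lower (62.6% higher, against 49.6%). With 1 library left out, the median of the members ran from -1.43 to -1.24 and their summed level in POGK cells from 714.5 to 747 CPM. Directions turned for KLF15 (0.038 with library size alone; -0.249 to 0.065 with 1 library left out), KLF16 (-0.009 to 0.156 with 1 library left out), FKBP5 and EP300 (0.14 and 0.011 with library size alone) and HDAC1 (-0.028 to 0.095 with 1 library left out), none of which passed there, and the cause was not tested. With library size alone HDAC1 passed as higher at 0.25, KLF16 likewise at 0.28, and 6 members rather than 7 fell at least 2-fold. PECAM1 lost its call under 8 alternatives and CD44 under 4.

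The replicate numbers were not shown to pair libraries: correlations of same-numbered deviations were 0.08, 0.04 and 0.0040. With the replicate block, KLF6 had a log2 fold change of -2.23 and the median of the members was -1.36. All 10 members were lower there, beside 5103 of the 15889 genes tested. Precision is limited by 3 libraries a group, and for KLF2 and KLF17 also by low counts.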
